A study of Mus musculus with 14 samples.

Results

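Lymphatic endothelial cells line the lymphatic vessels that run through the muscle coat of the gut. The nuclei described here were 125 of the 4533 nuclei kept from mouse colonic muscularis, 66 of 2837 in the WT library and 59 of 1696 in the KO library. They were chosen by 4 genes of this cell type: a nucleus needed at least 1 UMI (unique molecular identifier, 1 counted RNA molecule) of Flt4 or Mmrn1 and at least 2 UMIs over Flt4, Mmrn1, Reln and Prox1. It also had to have no UMI of Kit, Pdgfra or Elavl4, which mark interstitial cells of Cajal, fibroblasts and neurons. Since these values chose the nuclei, the levels of those 4 genes are given as a description only.

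Lymphatic vessels take up tissue fluid, dietary fat and immune cells and return them to the blood. The transcription factor Prox1, acting with Sox18 and Nr2f2, sets and keeps lymphatic identity, and Flt4 (VEGFR-3) is the receptor through which the growth factors Vegfc and Vegfd make the vessels grow. Capillaries present Lyve1, a hyaluronan receptor, and Ccl21a, a chemokine that draws dendritic cells and T cells into the vessel, while muscle-covered collecting vessels carry valves, for which Foxc2, Gata2, Itga9 and Celsr1 are known.

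The series compared C57BL/6 mice with the genotype "Carmn iKO", called KO here, with mice labelled "WT mTmG", called WT; Carmn is a long noncoding RNA of smooth muscle. Nuclei from colon were profiled for RNA, with counts of open chromatin in the same files, in 1 library per genotype. Bulk RNA was sequenced in 12 libraries, 3 per genotype from colon and 3 per genotype from jejunum, each named by a tag (m1, t1, t4, t6 or t7). How Carmn was deleted and in which cells, the treatment, the age of the mice and any pooling of animals are not stated in the labels or files used here.

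With 1 library per genotype, differences between WT and KO nuclei have no replicate check. Intervals given for them are exact 95% Poisson or Clopper-Pearson intervals and cover counting error only. Lymphatic endothelial nuclei held a median of 1551 UMIs in WT and 2005 in KO, against 1579 and 1856 in all other nuclei. The libraries shared 11 barcodes, none of them a lymphatic endothelial nucleus in both. Bulk libraries held 24254905 to 44315104 counts. Carmn, the targeted gene, was at 15.7 UMIs per 10000 in WT smooth muscle nuclei (2 or more Myh11 UMIs) and at 5.34 in KO smooth muscle nuclei. In bulk it went against the label. Bulk colon Carmn was 461, 304 and 718 counts-per-million units (CPM, a count scaled to library size) in the libraries labelled KO and 252, 171 and 351 in WT, with log2 fold change 0.94 ± 0.34 (SE, edgeR adjusted p = 0.23). Bulk jejunum had 996, 817 and 909 CPM in the libraries labelled KO and 240, 206 and 326 in WT (log2 1.82 ± 0.34, edgeR adjusted p = 0.065). The part of Carmn that was removed is not given, so counts outside it check nothing, and "KO" below names a label.

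The share of lymphatic endothelial nuclei was 2.33% in WT (interval 1.80 to 2.95%) and 3.48% in KO (2.66 to 4.46%). These intervals overlap. Mmrn1, a secreted multimerin protein, was detected in 62 of 66 WT and 55 of 59 KO nuclei. Its level was 11.1 UMIs per 10000 in WT and 9.67 in KO. Reln, the secreted protein reelin, was the most abundant of the 4, at 25.1 in WT (60 nuclei) and 16.9 in KO (51 nuclei). Prox1 was at 3.88 in WT and 3.53 in KO, and Flt4 at 2.72 and 2.26. All 4 genes were at 0 in the 22 WT blood endothelial nuclei (at least 1 UMI of Flt1 or Emcn and 2 over Flt1, Emcn, Plvap and Adgrf5), and Mmrn1 alone had UMIs, 2 in all, in the 33 KO ones. After each nucleus was thinned to 1000 UMIs, Mmrn1 had a UMI in 69.4% of WT and 48.8% of KO lymphatic endothelial nuclei. In smooth muscle nuclei, from which the lymphatic class was left out by its Mmrn1 and Flt4 UMIs, the thinned share was 0% in WT and 0.25% in KO (median depths 1886 and 2576), so this low share is set in part by the choice. Prox1 was less exclusive, with a UMI in 12.3% of WT and 8.63% of KO smooth muscle nuclei (5.81% and 1.77% thinned).

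Lymphatic genes that the rule did not use were also high in these nuclei. Of 18 further lymphatic genes, 10 were at least 2-fold higher than in all other nuclei in both libraries, while 9.82% of 13671 genes were so in WT and 9.91% of 13366 in KO. The 10 were Lyve1, Ccl21a, Klhl4, Tbx1, Sema3d, Nr2f2, Stab1, Sox18, Gata2 and Ackr2; the last 3 rested on 1 to 6 UMIs per library. Foxc2, Cldn11 and Nts had at most 3 UMIs in WT and 0 in KO, which is at or under the limit that a count of 0 allows. Nrp2 and Itga9, genes of lymphatic growth and valves, were at 4.43 and 3.27 UMIs per 10000 in WT lymphatic endothelial nuclei but also at 5.03 and 4.84 in WT smooth muscle nuclei.

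**Figure D1:**
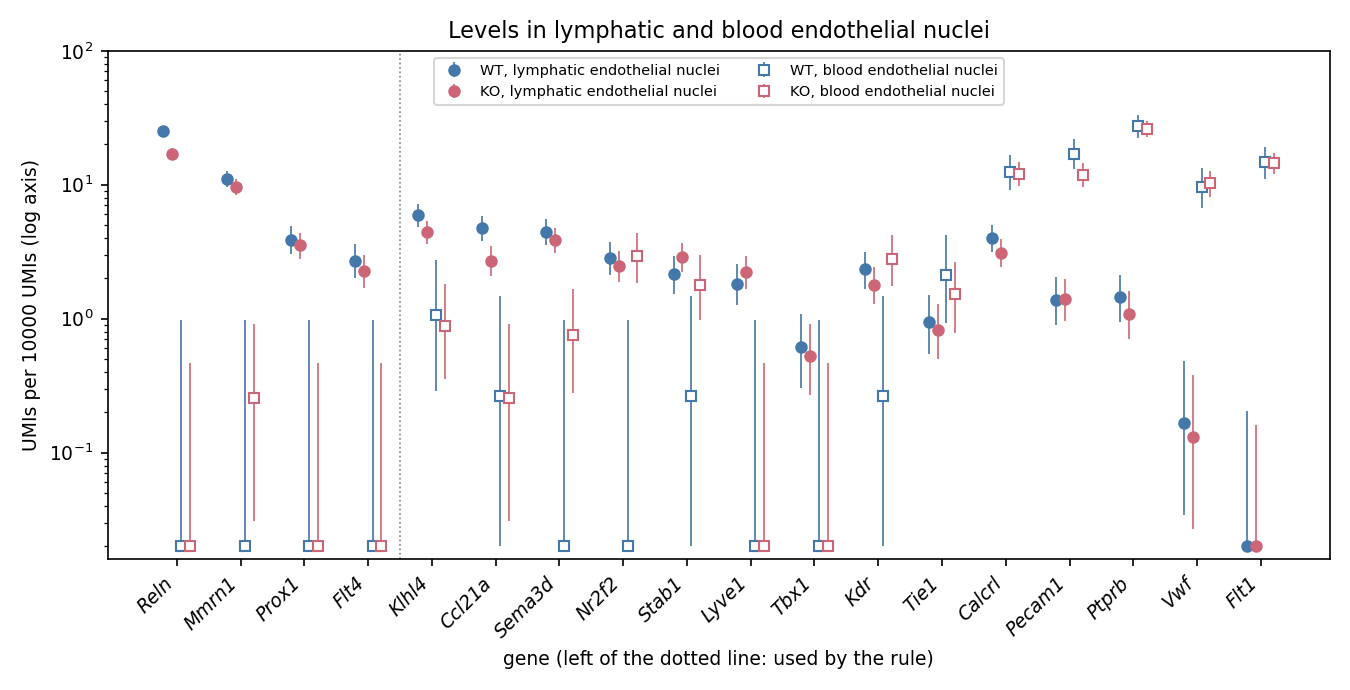
Levels of 18 genes (UMIs per 10000, log axis) in lymphatic (filled) and blood (open) endothelial nuclei of the WT (blue) and KO (red) library, with exact 95% Poisson intervals; a level of 0 is drawn at the bottom. Klhl4, Ccl21a and Lyve1 sit above the blood endothelial points, Pecam1 and Ptprb far below them, and Flt1 is at 0 in the lymphatic endothelial nuclei.

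At the edge of the rule the label was weaker. The 7 WT and 7 KO nuclei with exactly 2 marker UMIs held Lyve1, Ccl21a, Klhl4, Tbx1 and Sox18 together at 0 and 1.5 UMIs per 10000. Nuclei with 3 or more marker UMIs held the same 5 genes at 14.8 in WT (59 nuclei) and 11.4 in KO (52 nuclei). Just outside the rule, 18 WT and 20 KO nuclei with a single UMI of Flt4 or Mmrn1 held them at 1.56 and 0.21. Another 27 WT and 16 KO barcodes met the marker condition but carried Kit, Pdgfra or Elavl4. Their median depth was 37789 and 32490 UMIs, far above that of the lymphatic endothelial nuclei.

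Depth and smooth muscle RNA varied widely among the nuclei. Totals ran from 439 to 17124 UMIs in WT and from 375 to 17710 in KO, and marker UMIs from 2 to 45 and from 2 to 65. In KO, 9 nuclei above 8000 UMIs carried 44.9% of all UMIs of the class, and in WT 4 such nuclei carried 24.1%. Myh11, the smooth muscle myosin heavy chain, had 2 or more UMIs in 18 WT and 18 KO nuclei. Their median depth was 3231.5 UMIs in WT and 5041.5 in KO, against 1304.5 and 1293 in the rest. The 10 smooth muscle genes of the list summed to 88.6 UMIs per 10000 in WT and 49.9 in KO, close to the 103 and 72.3 of all other nuclei, and none was at 0. Without the nuclei with 2 or more Myh11 UMIs the sum was 4.6 and 4.57, and the 18 lymphatic genes then summed to 44.3 and 35.7 in place of 32.7 and 28.8. Carmn was at 6.65 in all WT and 1.57 in all KO lymphatic endothelial nuclei, and its log2 ratio, -2.08, was -0.51 without the nuclei above 8000 UMIs. In those without Myh11 it had 5 UMIs in WT and 0 in KO.

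**Figure D2:**
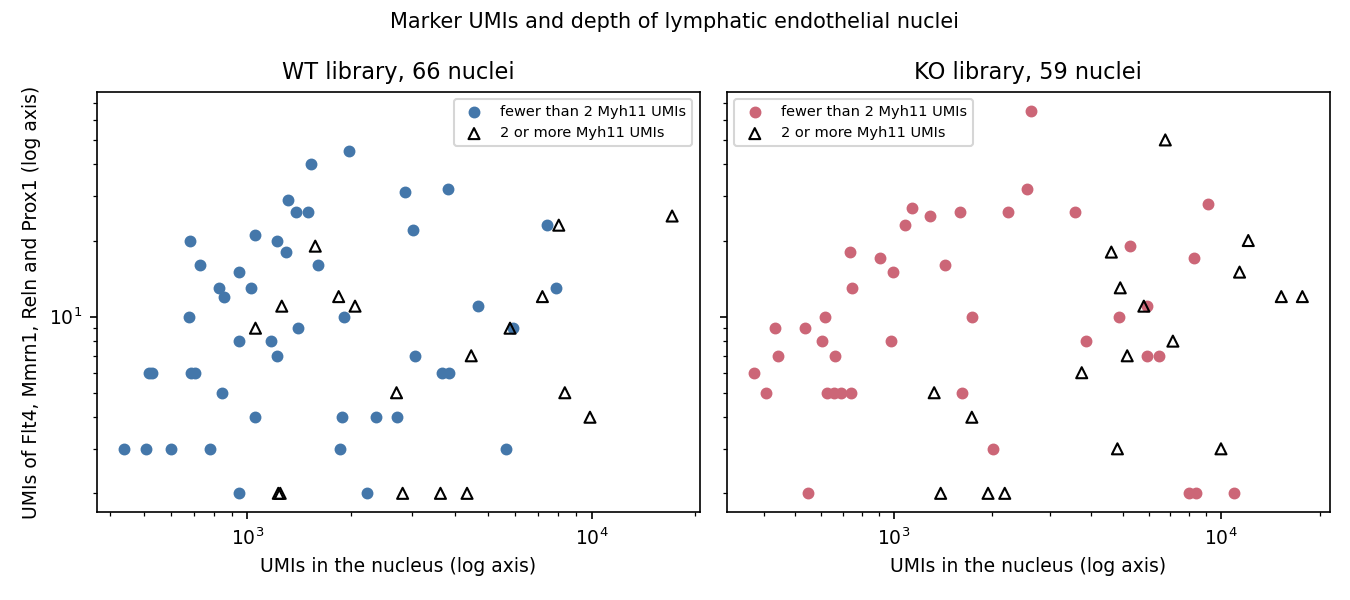
UMIs of Flt4, Mmrn1, Reln and Prox1 against all UMIs of each lymphatic endothelial nucleus (both log axes), in 66 WT and 59 KO nuclei. Open triangles are the 18 nuclei per library with 2 or more Myh11 UMIs, which lie mostly to the right, and the lowest points are those with 2 marker UMIs.

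Capillary genes marked some of the nuclei. In WT, 14 nuclei had UMIs of both Lyve1 and Ccl21a, 5 of Lyve1 alone, 17 of Ccl21a alone and 30 of neither. The corresponding KO counts were 14, 17, 11 and 17. Klhl4, a kelch-like protein gene, was detected in 35 WT and 34 KO nuclei, of which 11 and 15 also had Lyve1. A nucleus with no UMI of a gene at these depths cannot be told apart from one that lacks it, so these counts do not divide the class into vessel types.

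Among the transcription factors, 9 of 11 listed genes other than Prox1, which chose the nuclei, were at least 2-fold above all other nuclei in both libraries. Over all genes, 9.82% were so in WT and 9.91% in KO, and the share in both libraries was not counted. With Prox1, 6 of the list had at least 30 UMIs over the lymphatic and blood endothelial nuclei. Of these, 2 were at least 2-fold higher than in blood endothelial nuclei, 1 of them Prox1 itself, and 2 at least 2-fold lower. The shares over 3844 genes were 16.9% higher and 9.52% lower. Maf, a leucine zipper factor, was at 4.6 UMIs per 10000 in WT and 3.18 in KO, against 0.50 and 0.65 in other nuclei. Nr2f2 (COUP-TFII), a partner of Prox1, was at 2.83 and 2.48 against 0.40 and 0.37. Tbx1, a T-box factor needed for lymphatic vessels, was lower in level, at 0.61 and 0.52, but had the highest ratio to all other nuclei of any gene that could be named (49.5-fold, libraries pooled, 23 UMIs in the class). The forkhead factor of valves, Foxc2, had 1 UMI in all.

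Of 13 receptors other than Flt4, which chose the nuclei, 7 were at least 2-fold above other nuclei in both libraries. With Flt4, 11 of the list had at least 30 UMIs over the lymphatic and blood endothelial nuclei. Of these, 2 were at least 2-fold higher than in blood endothelial nuclei, 1 of them Flt4 itself, and 4 at least 2-fold lower. The shares over 3844 genes were 16.9% higher and 9.52% lower. Kdr (VEGFR-2), which also binds Vegfc, was at 2.33 in WT and 1.79 in KO, near the level of Flt4. Calcrl, which with Ramp2 forms the adrenomedullin receptor, was at 3.99 and 3.09, and Ramp2 at 0.50 and 0.26. Tie1 and Tek, of the angiopoietin receptor system, were at 0.94 and 0.72 in WT and 0.83 and 0.91 in KO. Of 10 ligand genes 0 passed 2-fold in both libraries, which with 10 genes is near the share over all genes (9.82% and 9.91% in each library). Vegfc was at 0.94 in WT and 0.22 in KO lymphatic endothelial nuclei, and Vegfd had 3 and 4 UMIs. Ccbe1, which helps process Vegfc, was at 2.94 in WT and 0.91 in KO, against 2.10 and 0.95 in other nuclei.

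Junction and valve genes divided. Of 14, 4 were at least 2-fold above all other nuclei in both libraries: Cdh5 (VE-cadherin), Cldn5 (claudin-5), the ephrin Efnb2 and the connexin Gja4, the last on 3 and 4 UMIs. Over all genes, 9.82% were so in WT and 9.91% in KO. Of 7 with at least 30 UMIs over the lymphatic and blood endothelial nuclei, 0 were at least 2-fold higher than in blood endothelial nuclei. In the other direction, 4 were at least 2-fold lower. Against blood endothelial nuclei, 16.9% of 3844 genes were higher by this measure and 9.52% lower. Cldn5 was at 0.72 in WT and 0.35 in KO, and Cdh5 at 0.61 and 0.39. Leukocyte traffic genes had 4 of 13 at least 2-fold above all other nuclei in both libraries, Ccl21a, Lyve1, Stab1 and Ackr2, beside the same 9.82% and 9.91%. Of 6 with at least 30 UMIs, 3 were at least 2-fold higher than in blood endothelial nuclei and 1 at least 2-fold lower, beside 16.9% and 9.52%. Ccl21a was at 4.77 and 2.70, and Stab1, a scavenger receptor, at 2.16 and 2.87. Lyve1, Stab1 and Mrc1 are also macrophage genes. Of the 8 macrophage genes listed, 6 were at 0 in the WT lymphatic endothelial nuclei (Adgre1, Cx3cr1, C1qa, C1qb, Cd163 and F13a1) and 2 in the KO ones (C1qb and Cd163). Nuclei with 3 or more UMIs of the list were 0% in WT and 11.9% in KO, and the list summed to 0.72 in WT and 2.0 in KO, against 0.58 and 2.89 in other nuclei. Of the reelin pathway beyond the ligand, the receptors Lrp8 and Vldlr and the adaptor Dab1 together had 1 UMI in WT and 2 in KO, under the floor of 3.

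By ratio to all other nuclei, libraries pooled, the leading genes outside the rule were Tbx1, the cytochrome Cyp4b1 (37.1-fold), Klhl4 (26.9-fold), Ccl21a (26.6-fold), the adhesion receptor Adgrg3 (23.3-fold), Slc45a3 (22.7-fold) and Lyve1 (18.4-fold). Next came Mmrn2, Emcn, Kdr, Cldn5, Tie1, the polarity gene Pard6g, 4833422C13Rik and Arap3, at 17.9-fold to 14.5-fold. Of these, Mmrn2, Tie1 and Arap3 were 1.49-fold, 1.96-fold and 2.11-fold higher in blood than in lymphatic endothelial nuclei, libraries pooled. Kdr was 1.02-fold higher in the lymphatic nuclei, libraries pooled, but the libraries went opposite ways. It was at 2.33 UMIs per 10000 against 0.27 (1 UMI) in blood endothelial nuclei of WT, and at 1.79 against 2.79 in KO. Cldn5 was 1.99-fold and 4833422C13Rik at least 3.31-fold higher in the lymphatic nuclei, on 3 and 2 blood endothelial UMIs. Pard6g was at 3.99 UMIs per 10000 in WT, with 13 of its 72 UMIs in 1 nucleus, and at 1.61 in KO, and had no UMI in blood endothelial nuclei. Emcn, often taken as a blood vessel gene, was at 1.5 and 1.92 in lymphatic endothelial nuclei and at 3.20 and 3.93 in the blood endothelial nuclei it helped to choose.

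The 55 blood endothelial nuclei hold none of the lymphatic class, also where a lymphatic nucleus carried Emcn and would have met their condition. Reln and Prox1, which helped to choose the lymphatic nuclei, had 0 UMIs among them. A blood endothelial nucleus could hold either gene only without a UMI of Flt4 or Mmrn1. The choice therefore set these counts in part but did not fix them at 0. The ratios of Reln and Prox1, at least 79.6-fold and at least 14.3-fold (floor of 3 UMIs over the class), are a description only. Of 3844 genes with at least 30 UMIs over both classes, 16.9% were at least 2-fold higher in the lymphatic and 9.52% in the blood endothelial nuclei. Of the 10 further lymphatic genes with enough UMIs, 6 were at least 2-fold higher in the lymphatic nuclei and 0 lower. The matrix gene Abi3bp was at 11.4 UMIs per 10000 in WT and 4.36 in KO lymphatic endothelial nuclei, with 5 UMIs in blood endothelial nuclei. Also among the 8 highest ratios were Cdh19, Scn7a, Csmd1 and Sox2ot, each found in only 10 to 13 nuclei per library. Cdh19, a glial cadherin, was at 12 in WT and 9.32 in KO, against 12.3 and 8.10 in all other nuclei, and a single WT nucleus held 59 of its 216 UMIs.

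Shared endothelial genes stood above other nuclei but low beside blood endothelial nuclei. Of 15 pan-endothelial genes, 12 were at least 2-fold above all other nuclei in both libraries (over all genes, 9.82% in WT and 9.91% in KO). The list summed to 19.4 UMIs per 10000 in WT and 16.5 in KO, against 3.17 and 5.32 in other nuclei. Of 14 pan-endothelial genes with at least 30 UMIs, 12 were at least 2-fold lower than in blood endothelial nuclei, where 9.52% of 3844 genes were. Ptprb, an endothelial phosphatase, was at 1.44 in WT and 1.09 in KO lymphatic endothelial nuclei and at 27.4 and 26.2 in blood endothelial ones. Pecam1 (CD31) was at 1.39 in both libraries, against 17.1 and 11.9. The lowest ratios belonged to Flt1 (VEGFR-1), at least 198-fold lower, and to Myrip, at least 86.9-fold lower, both with 0 UMIs in the lymphatic class. Flt1 also chose the blood endothelial nuclei. Vwf, the clotting factor von Willebrand factor, had 3 UMIs per library against 9.59 and 10.3 UMIs per 10000. Rasa4, Mcf2l, Cd36, Dach1 and Zfp366 had 1 to 5 UMIs in the class over both libraries.

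The WT and KO lymphatic endothelial nuclei were compared as 2 libraries. Of 4288 genes with at least 20 UMIs, 490 (11.4%) were at least 2-fold higher and 318 (7.42%) at least 2-fold lower in KO, with a median ratio of 0.979. The counting interval included 1 for 165 of them. Among the 12 further lymphatic genes with enough UMIs, 1 was at least 2-fold higher and 0 lower, with a median ratio of 0.898; with 12 genes these counts are near the shares over all genes. The podoplanin gene Pdpn was that gene, at 0.39 in WT (7 nuclei) and 1.61 in KO (16 nuclei), a ratio of 4.15 (1.83 to 11), and its ratio was 2.07 in all other nuclei as well. Reln had a ratio of 0.68 (0.59 to 0.78), Ccl21a 0.57 (0.40 to 0.79), Nrp2 0.63 (0.45 to 0.88), Klhl4 0.75 (0.57 to 0.99) and Lyve1 1.21 (0.77 to 1.94). Without the nuclei above 8000 UMIs, an alternative added after seeing the data, the log2 ratio of Reln was -0.25 and that of Klhl4 0.02, in place of -0.56 and -0.42. Without the condition on Kit, Pdgfra and Elavl4 both turned, to 0.38 and 0.55. Of 4 ligand genes with enough UMIs, Vegfc (0.23), Ccbe1 (0.31) and Angpt1 (0.19) were at least 2-fold lower in KO, and their ratios in all other nuclei were 0.66, 0.45 and 0.48. The flow sensor Piezo1, at 1.61 and 3.44, had a ratio of 2.14 (1.38 to 3.40), and 1.72 in all other nuclei.

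Serpina3n, a secreted protease inhibitor that responds to inflammation, was the gene with the highest ratio. It had 1 UMI in 1 of 66 WT nuclei and 44 UMIs in 20 of 59 KO nuclei, a ratio of 34.6 (5.89 to 1396). In all other nuclei its ratio was 20.9, so the difference between the libraries was not limited to the lymphatic class. Bmper, a secreted regulator of bone morphogenetic proteins, had 5 UMIs in 4 WT nuclei and 180 in 17 KO nuclei, a ratio of 28.3 (11.9 to 88.2), with 47 of the 180 in 1 nucleus, and was 3.5-fold higher in other KO nuclei. The ligand Wnt9a had 1 UMI in WT and 34 UMIs in 10 KO nuclei. Arhgap15 and Dock2, signalling genes of leukocytes, came from 8 and 11 KO nuclei. Dock2 was at 0 in WT and at least 18.6-fold higher in KO (floor of 3 UMIs over the class), and its log2 ratio was -0.07 when the condition on Kit, Pdgfra and Elavl4 was dropped. S100a11, Aprt and Mgat3 completed the 8, each with 1 UMI in WT. Without the nuclei above 8000 UMIs the log2 ratio of Serpina3n was 4.76 in place of 5.11, of Bmper 2.92 in place of 4.82, of Wnt9a 2.70 in place of 4.74 and of Aprt 0.85 in place of 4.11. Without the condition on Kit, Pdgfra and Elavl4 that of Bmper was 2.45.

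The genes with the lowest ratios rested on few nuclei. Grm7, a glutamate receptor, had all its 45 WT UMIs in 1 nucleus, and Galnt13 28 of its 31. The log2 ratio of Galnt13 was 0.52, not -5.30, without the condition on Kit, Pdgfra and Elavl4. Nxph1 had 94 UMIs in 6 WT nuclei and 4 in KO, a ratio of 0.0334 (0.00892 to 0.0885). Fam155a was found in 11 WT and 4 KO nuclei at a level far below that of other nuclei (3.44 against 16.3 UMIs per 10000 in WT). Kcnn2, a potassium channel, had 70 UMIs in 13 WT nuclei and 6 in 2 KO nuclei. Cntn3 had 39 UMIs in WT and 0 in KO, at least 16.5-fold lower. Scube2 and Nek10 had 21 and 30 UMIs, each in 6 WT nuclei, and 1 and 2 in KO. Without the nuclei with 2 or more Myh11 UMIs, Cntn3, Scube2 and Nek10 had 2, 1 and 0 UMIs in WT and 0, 0 and 1 in KO, at or under the floor, so no ratio can be given there. Under the same setting the log2 ratio of Kcnn2 was -2.22 in place of -3.89, that of Fam155a -1.81 in place of -4.30 and that of Nxph1 -5.15 in place of -4.90.

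Mesothelial, fibroblast and epithelial genes stood higher in the KO nuclei. The sums of the smooth muscle, enteric glia and B lymphocyte lists stood lower (49.9 against 88.6, 10.9 against 12.6 and 4.88 against 6.82). Of 6 mesothelial genes, 4 were at least 2-fold higher, where 11.4% of 4288 genes were. The list summed to 16.3 UMIs per 10000 in WT and 37.2 in KO, with no gene at 0. Msln, the mesothelial surface protein mesothelin, was at 0.72 in 5 WT nuclei and 7.97 in 21 KO nuclei, and had a ratio of 4.25 in all other nuclei. Of 4 fibroblast genes with enough UMIs, 3 were at least 2-fold higher, and the list summed to 15.8 and 37.0. The fibroblast gene Dcn (decorin) was at 5.49 and 14.7. Of 3 epithelial genes with enough UMIs, 2 were at least 2-fold higher, and the list summed to 3.10 and 6.05. The macrophage list summed to 0.72 in WT and 2.0 in KO, and the T lymphocyte list to 0 and 0.65. What share of the KO and WT differences these transcripts carry was not tested.

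**Figure D3:**
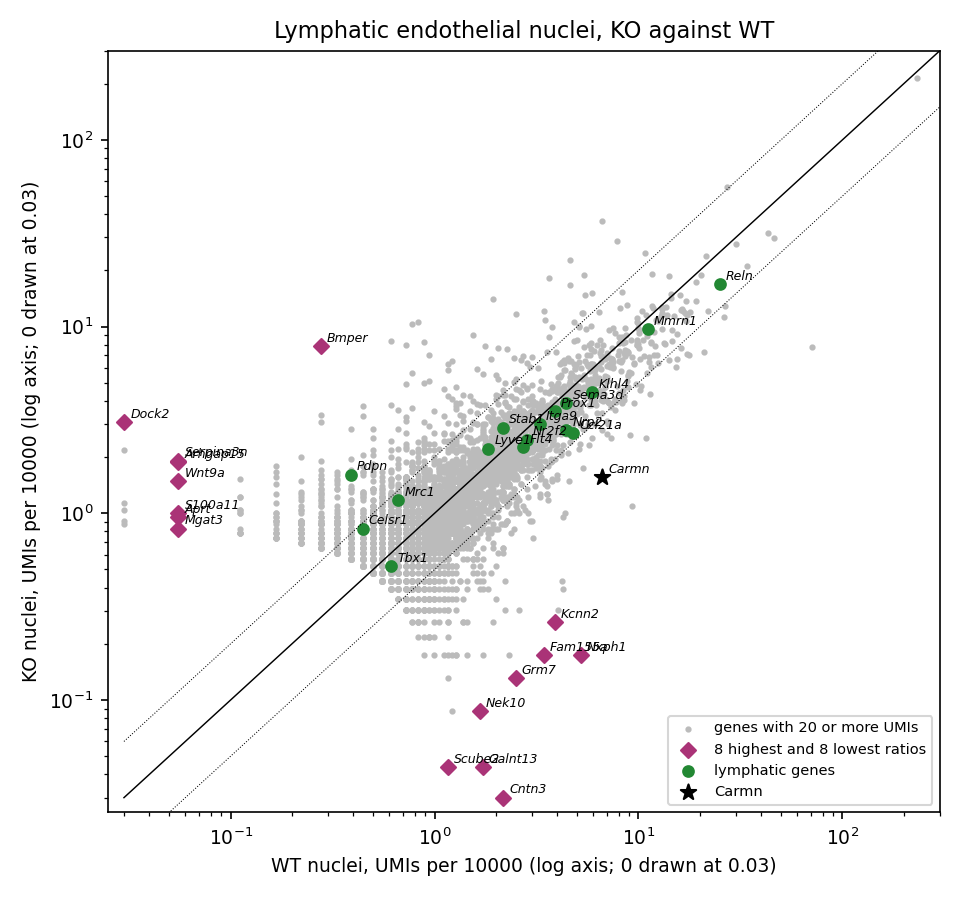
UMIs per 10000 in KO against WT lymphatic endothelial nuclei (log axes, solid line equal, dotted lines 2-fold) for 4288 genes, with the lymphatic genes in green. Most green points lie between the dotted lines, Pdpn lies above them, and Carmn lies below.

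Open chromatin was sparse in this class, with 45070 region counts in WT and 70210 in KO. Only 11.6% of the non-zero region values in WT and 11.5% in KO were odd, so region counts mostly came in pairs. Poisson intervals on them are therefore too narrow. The deposited files list 35003 regions in WT and 26493 in KO, which merged to 46823. Of 3298 merged regions counted in at least 5 lymphatic endothelial nuclei, 526 (15.9%) were at least 2-fold higher than in all other nuclei per 10000 region counts, with a median of 1.39. Asking for 5 nuclei of a small class favours regions that are high in it, so a median above 1 is set in part by the filter. The 22 lymphatic genes held 38 regions in or within 2000 bases of 14 genes, and 4 of these reached 5 nuclei, 3 of them at least 2-fold higher. Against blood endothelial nuclei the 4 had a median ratio of 1.46 (floor of 3 counts), the same as the 3298 regions. All 38 summed to 8.88 per 10000 in WT and 8.69 in KO, against 3.77 and 9.94 in blood endothelial nuclei.

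The highest of the 3 lay in an exon of Celsr1, a cadherin of lymphatic valves, 730 bases from its start site (GRCm38, chr15:86032616-86033478). It was counted in 5 of 66 WT and 3 of 59 KO nuclei, at 1.78 and 0.85 per 10000 against 0.17 and 0.39 in all other nuclei (4.92-fold). Blood endothelial nuclei held it at 0 in WT and at 0.99 in KO (4 counts in 1 nucleus). A second, in a Celsr1 intron (chr15:85980259-85981561), was 3.31-fold higher. It was at 0.44 in WT and 1.14 in KO, against 0 and 0.99 in blood endothelial nuclei. The third covered the start site of Sema3d, a semaphorin gene whose RNA was at 4.43 and 3.88 UMIs per 10000 in the class (chr5:12383052-12383945). It was counted in 2 WT and 3 KO nuclei, at 0.89 (0.24 to 2.27) and 1.28 (0.59 to 2.43) per 10000 against 0.32 and 0.45, which is 3.05-fold. Since counts mostly came in pairs, these intervals are too narrow to set apart from the other nuclei. The region at the Prox1 start (chr1:190170250-190171303) had 0 counts in the class. The upper limits of 0.82 and 0.53 per 10000 lie above the 0.24 and 0.36 of all other nuclei, so no difference was detectable at this depth. The Flt4 region (chr11:49609475-49610388), listed in WT only, also had 0.

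The 250 bases before a RefSeq start (GRCm38.p6) are shown for Sema3d, whose start region was counted in 5 nuclei. The same is shown for the markers Prox1 and Flt4, whose regions had none. Capitals mark the bases inside the region. They run 5′ to 3′ on the gene's strand, at chr5:12382916-12383165 (plus), chr1:190170828-190171077 (minus) and chr11:49609429-49609678 (plus).
Sema3d: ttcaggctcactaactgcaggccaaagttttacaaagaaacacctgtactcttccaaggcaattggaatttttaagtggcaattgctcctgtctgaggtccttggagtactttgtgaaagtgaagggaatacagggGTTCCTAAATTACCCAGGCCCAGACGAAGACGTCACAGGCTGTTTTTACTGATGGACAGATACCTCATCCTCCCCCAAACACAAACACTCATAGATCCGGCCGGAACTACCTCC
Prox1: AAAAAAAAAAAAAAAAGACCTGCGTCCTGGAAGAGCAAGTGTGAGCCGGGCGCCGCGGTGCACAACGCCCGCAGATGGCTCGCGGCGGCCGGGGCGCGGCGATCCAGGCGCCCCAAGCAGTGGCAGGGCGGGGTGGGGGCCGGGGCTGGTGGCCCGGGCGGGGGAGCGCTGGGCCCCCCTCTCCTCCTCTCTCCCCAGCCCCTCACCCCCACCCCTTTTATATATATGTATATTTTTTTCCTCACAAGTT
Flt4: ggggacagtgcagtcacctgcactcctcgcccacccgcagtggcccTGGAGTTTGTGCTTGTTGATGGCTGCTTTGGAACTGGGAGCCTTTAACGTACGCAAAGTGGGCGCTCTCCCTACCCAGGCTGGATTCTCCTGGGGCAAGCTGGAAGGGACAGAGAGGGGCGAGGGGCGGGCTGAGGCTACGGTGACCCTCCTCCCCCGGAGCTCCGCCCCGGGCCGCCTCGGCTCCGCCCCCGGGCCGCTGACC
The Sema3d region covered 114 of the 250 bases, the Prox1 region all of them and the Flt4 region 204. A fixed run of letters for each of 5 families of transcription factors was searched for on both strands, without regard to overlap. None of these runs occurred in these 3 windows, but shorter or variant sites were not searched for. Another RefSeq window of Prox1, not shown (chr1:190169516-190169765), held the FOX letters TAAACA 1 time. In the annotation used to place the regions, the Flt4 region did not cover the gene's start site, which was 668 bases from its middle. For ETS factors, AGGAAG was in 5 of 21 windows of 18 lymphatic genes and in 29.5% of all 32851 such windows. The GATA letters AGATAA were in 1 of the 21 and in 9.99% of all windows. For SOX factors, ACAAT was in 3 of the 21 and in 27.7% of all. For FOX factors, TAAACA was in 3 of the 21 and in 12% of all. The nuclear receptor letters AGGTCA were in 2 of the 21 and in 14% of all.

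The 8 highest ratios of regions in the class to all other nuclei ran from 19.7-fold to 7.25-fold, each on 5 or 6 nuclei. The first lay between genes (chr5:126046366-126047487), with 2 counts in WT and 8 in KO. One lay at the start of Rab38, a trafficking GTPase (chr7:88429770-88430806), with 14 counts in 4 WT nuclei and 4 in 2 KO nuclei. None of the 8 lay in or beside a lymphatic gene of the list.

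In bulk muscularis, where fewer cells of a type and less RNA per cell cannot be told apart, lymphatic genes were compared in libraries that took no part in choosing the nuclei. The class held 53.9% of all Reln UMIs of the WT library, 50.9% of Mmrn1, 38.3% of Flt4 and 29.2% of Lyve1, but 19.5% of Prox1 and only 3.28% of Nrp2 and 3.20% of Itga9. Ccl21a, abundant in the nuclei, had at most 0.0868 CPM in any bulk library and was not tested. It has near-identical copies in the mouse genome, so its bulk value is uncertain.

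The 4 genes that chose the nuclei stood higher in WT colon than in WT jejunum. Flt4 was at 108, 66.3 and 90.8 CPM in WT colon and at 21.7, 36.7 and 10.6 in WT jejunum. The groups did not overlap, and the log2 difference was 1.94 ± 0.38 (SE, edgeR adjusted p = 0.030, higher in 3 of 3). Leaving out any 1 of 5 of the 6 WT libraries (all but jejunum t6) ended this call, with adjusted p between 0.052 and 0.14. It also ended with only the 6 libraries of the comparison in the fit (edgeR adjusted p = 0.084) and with the tag as a block (adjusted p = 0.19). Reln was at 128, 89.5 and 112 in WT colon and at 19.6, 51.3 and 6.02 in WT jejunum (log2 2.10 ± 0.58, edgeR adjusted p = 0.12). Mmrn1 (log2 1.96, edgeR adjusted p = 0.14) and Prox1 (1.37, adjusted p = 0.12) had groups that did not overlap either but missed the threshold. In each of the 4 genes the library WT jejunum t7 was the lowest.

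Of the 21 lymphatic genes tested, 1 (Flt4) passed in this comparison, while 1.56% of 20886 genes passed (0.694% higher and 0.862% lower in colon). The groups did not overlap for 13 of the 21, against 22.9% of all genes, and the median log2 difference was 0.75, against 0.04 for all genes. With DESeq2 7 of the 21 passed, where 5.68% of all genes did, and with limma voom 2, where 1.67% did. Ackr2, the decoy receptor by which lymphatic vessels clear inflammatory chemokines, was at 10.2, 7.89 and 9.48 CPM in WT colon and at 1.66, 2.36 and 0.24 in WT jejunum (log2 2.69 ± 0.61, edgeR adjusted p = 0.054). Lyve1 (1.85, adjusted p = 0.13), Foxc2 (1.88, adjusted p = 0.19) and Tbx1 (1.66, adjusted p = 0.24) were in edgeR next by p. Other lists did not all stand the same way, and higher values in colon were not particular to lymphatic genes. Fibroblast genes had a median of 0.89, groups not overlapping for 7 of 8, and 1 passing in edgeR. Medians were 1.49 for epithelial, 0.78 for T lymphocyte, 0.71 for B lymphocyte, 0.55 for enteric glia and 0.38 for enteric neuron genes. They were 0.18 for smooth muscle, -0.09 for interstitial cell of Cajal, -0.20 for mural and -1.99 for mesothelial genes. Blood endothelial genes had a median of 0.01 with 0 of 15 passing in edgeR, 2 at an unadjusted p below 0.05 and 0 in DESeq2. Pan-endothelial genes had a median of 0.56 with 0 of 15 passing in edgeR, 4 at an unadjusted p below 0.05 and 1 in DESeq2. All 8 macrophage genes, which share Mrc1 with the lymphatic list, were higher in value, with a median of 0.64, 0 passing in edgeR or DESeq2, 0 at an unadjusted p below 0.05, none at 0, and summed levels of 332 to 518 CPM in WT colon and 160 to 368 in WT jejunum. The part of these cells in the result was not tested.

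**Figure D4:**
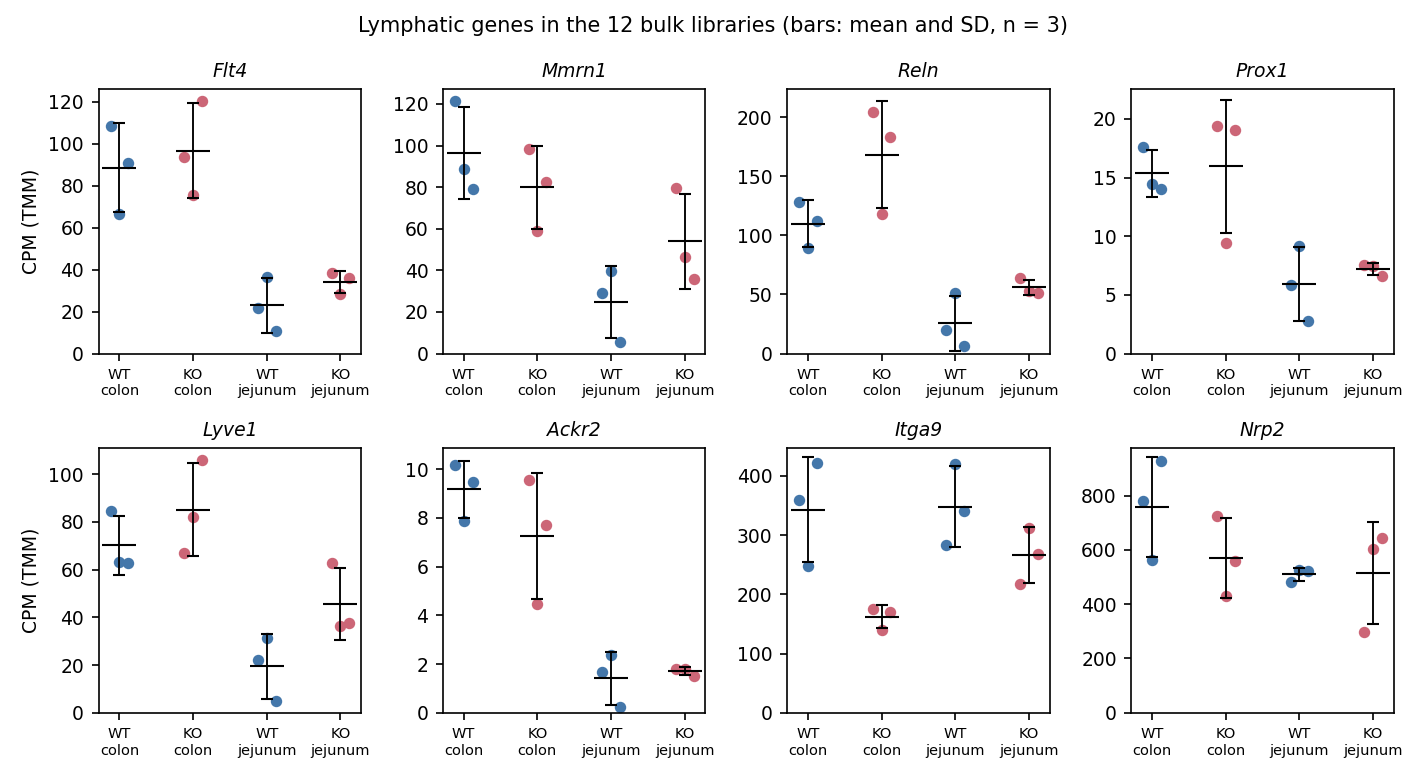
CPM of 8 lymphatic genes in the 12 bulk libraries, 3 per group, with the mean and SD. Flt4, Mmrn1, Reln, Prox1, Lyve1 and Ackr2 lie higher in colon than in jejunum for WT, and Itga9 in the libraries labelled KO lies below WT in colon.

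Between libraries labelled KO and WT in colon, 0 of 21 lymphatic genes passed in edgeR, where 0.388% of 20886 genes did (0.115% higher and 0.273% lower). The groups did not overlap for 2 of the 21, against 19.2% of all genes. One had an unadjusted p below 0.05 (background 14.5%), and 1 passed in DESeq2 (background 5.01%). That gene was Itga9, the integrin chain of valve formation, at 175, 140 and 171 CPM in the libraries labelled KO and 360, 247 and 423 in WT. Its groups did not overlap, and its log2 difference was -1.09 ± 0.24 (SE, edgeR adjusted p = 0.088, lower in 3 of 3, DESeq2 adjusted p = 0.0018). In the nuclei its KO to WT ratio was 0.92 in the lymphatic class, and smooth muscle nuclei carried it at 4.84 and 4.86 UMIs per 10000. Sema3d (-0.56), Klhl4 (-0.66) and Gata2 (0.80) followed by p, with edgeR adjusted p from 0.35 to 0.52. Flt4 (0.13), Mmrn1 (-0.27), Reln (0.61) and Prox1 (0.06) had adjusted p from 0.67 to 0.97 in edgeR. The median over the 21 genes was 0.06, against 0.004 for all genes.

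In jejunum, again 0 of 21 passed in edgeR (background 0.215%, 0.124% higher and 0.091% lower), 6 had an unadjusted p below 0.05 (13.2%), and 2 passed in DESeq2 (3.95%), Foxc2 and Mrc1. The groups did not overlap for 5 of the 21, where 22.2% of all genes did not. Stab1 was at 229, 109 and 154 CPM in the libraries labelled KO and at 76.5, 102 and 43.7 in WT (log2 1.15 ± 0.35, edgeR adjusted p = 0.20). Foxc2 had a log2 difference of 1.85 ± 0.62 (edgeR adjusted p = 0.23) at 3.21 to 4.21 CPM against 0.21 to 1.63, and Mrc1 of 1.76 ± 0.59 (adjusted p = 0.24). Nr2f2 was lower in value (-0.65, adjusted p = 0.25). Mmrn1 (1.12) and Reln (1.12) had edgeR adjusted p of 0.42, and 0.64 for both as log2 differences without WT jejunum t7. All 8 macrophage genes were higher in value under the KO label (median 1.78). In edgeR 0 of the 8 passed and 5 had an unadjusted p below 0.05, and in DESeq2 5 passed, where 3.95% of all genes did. The macrophage sums were 530 to 1369 CPM in the libraries labelled KO and 160 to 368 in WT, none at 0. Their part in the values of Stab1, Mrc1 and Lyve1 was not tested.

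The difference between the colon and the jejunum change was tested itself. It passed for 0 of 21 lymphatic genes and 0 of 20886 genes in edgeR (background 0%), and for 0 of the 21 in DESeq2 (background 0.217%). Unadjusted p was below 0.05 for 2 of the 21, Nr2f2 (0.73 ± 0.32) and Mrc1 (-1.80 ± 0.81), where 4.16% of all genes were (edgeR adjusted p = 0.94 for both). Itga9 (-0.70) and Stab1 (-0.76) were next, with the same adjusted p. The genotype comparisons in the 2 tissues used separate libraries, but each shares its WT libraries with the comparison of WT colon and jejunum. The labels do not say that libraries of a group came from separate animals, so the p-values measure only the spread between these libraries.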

How the data were processed

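The authors deposited count matrices of nuclei, with UMI counts per gene and counts per open region, and a table of bulk counts per gene. Cell Ranger, STAR 2.0.4b, Subread, featureCounts 1.4.5, edgeR, GRCm38 and mm10 are named in the submitters' processing notes, without roles. All gene values of the matrices were even, so they were divided by 2 to give UMIs. Barcodes with at least 300 genes and at most 5% mitochondrial UMIs were kept. Scrublet (scanpy 1.11.5) called 0.106% and 0.118% doublets and has not worked, so doublets were not removed. Levels are UMIs per 10000 summed over a class and library. Regions of the 2 libraries were merged where they overlapped.

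Bulk counts were tested with edgeR 4.0.16 (quasi-likelihood, TMM scaling, a filter on low counts, a mean per group over 12 libraries, Benjamini-Hochberg over 20886 genes, threshold 0.05). Fold changes of bulk data are edgeR's, and CPM use TMM. DESeq2 1.42.0 and limma 3.58.1 (voom) were alternatives. In counts simulated for the colon comparison, edgeR recovered 9 of 100 genes changed 2-fold and 57 of 100 changed 4-fold.

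The text names the 4 markers, Carmn and members of the lists, the 15 highest ratios to other nuclei, the 8 highest and 8 lowest ratios to blood endothelial nuclei and of KO to WT, the 8 highest regions, and in bulk the lymphatic genes with the 4 smallest p where fewer passed. Members and lists were chosen with earlier results of these data known. Colon and jejunum libraries of a genotype share tags. The labels do not say whether a tag names an animal, and the tags were not taken as pairs in the main fit. Deviations of same-tagged libraries correlated at -0.16 to 0.10, inside the -0.39 to 0.35 of libraries with different tags. With so few same-tagged pairs, these correlations cannot decide whether the libraries are paired. The fit with the tag as a block changed the calls between WT colon and WT jejunum, as given.

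Other lists summed, in UMIs per 10000 of WT and KO lymphatic endothelial nuclei, to 1.72 and 1.96 (mural), 4.66 and 5.53 (interstitial cell of Cajal), 12.6 and 10.9 (enteric glia), 0.44 and 0.57 (enteric neuron), 6.82 and 4.88 (B lymphocyte) and 3.10 and 6.05 (epithelial).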

Additional observations from a re-analysis of the deposited data

How the results depend on the processing

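With 1 nuclei library per genotype and 125 lymphatic endothelial nuclei, counting error and single deep nuclei limit the nuclei results. Without the condition on Kit, Pdgfra and Elavl4 the WT share was 3.28%, the genes at least 2-fold lower in KO numbered 618 of 10917, and the log2 KO to WT ratios reversed for Dock2 (-0.067) and Galnt13 (0.52). Without nuclei that have 2 or more Myh11 UMIs the shares were 1.69% in WT and 2.42% in KO, and 310 of 2519 genes were at least 2-fold higher in KO. That count was 274 of 3342 with at most 1% mitochondrial UMIs and 249 of 3056 without nuclei above 8000 UMIs, an alternative chosen after seeing the data. These settings test fewer or more genes, as given, and the cause was otherwise not tested.

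In bulk, the count of lymphatic genes passing between WT colon and WT jejunum was 2 with no filter on low counts, 7 with DESeq2, 2 with limma voom and 0 with only the libraries of the comparison. Leaving out each of the 12 libraries gave 0 to 2 for this comparison and 0 for the other 3. DESeq2 gave 1 for colon and 2 for jejunum between the libraries labelled KO and WT. With the tag as a replicate block, in WT libraries only, 0 lymphatic genes passed (Flt4 log2 2.08, edgeR adjusted p = 0.19) while the genes called over all numbered 590 in place of 325, and the block left the difference between the tissues at 0. No paired analysis was possible for KO against WT because the groups share fewer than 2 tags within a tissue.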
